A study of Mus musculus with 30 samples.

Results

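A CpG is a cytosine followed by a guanine, and its methylation level in a DNA sample is the percent of reads that carry a methylated cytosine there. The CpGs described here were partly methylated in mouse sperm and lay close to another such CpG. They were chosen by 3 conditions: position on chr1 to chr19, 10 or more reads in each of the 30 libraries with the 2 strands summed, and an unweighted mean level of 20% to 80% over the 15 vehicle libraries with another CpG of that kind within 50 bp. Of 414071 CpGs with enough reads, 34154 (8.25%) met them, and they are called clustered partial CpGs below. Their vehicle levels are therefore a description of the choice and not a result.

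The libraries came from cauda epididymal sperm of C57BL/6J males, also labelled C57BL/6, aged 7 weeks initially and treated for 9 weeks. The cadmium group (n = 15 mice) received cadmium chloride in its drinking water (reverse-osmosis water, 0.9 ppm cadmium), an average dose of 0.68 mg per kg body weight. The vehicle group (n = 15 mice) drank reverse-osmosis water alone. All 30 mice were housed singly and ate the same diet with 10% of its energy from fat, and each library is 1 mouse. DNA was read by reduced representation bisulfite sequencing, which samples CpG-rich restriction fragments and reads methylation after bisulfite conversion.

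DNA methylation is copied at cell division by maintenance methyltransferases and is set anew in male germ cells before birth. In mature sperm most CpG-rich promoters are unmethylated and most other CpGs are methylated, and few sit between these states. Genes used in germ cells and maternally imprinted genes are usually unmethylated in sperm and methylated, or methylated on 1 allele, in somatic cells. A library pools many sperm, so a level of 50% does not tell whether some cells are fully methylated and others not, or whether each cell is mixed. Fewer methylated cells and less methylation per cell cannot be told apart. The libraries of both groups stood apart in how many of these CpGs lay outside 20% to 80%, from cadmium mouse 5 and vehicle mouse 3 with the most to cadmium mouse 11 and vehicle mouse 12 with the fewest, and the values are given with the levels per library.

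Among the promoter windows that hold 7 or more clustered partial CpGs, those of 6 genes are printed to show how these CpGs sit in the sequence. Others are not printed, such as those of *4930467D21Rik* (11 CpGs), *Alpk3* (9), *Vmn2r29* (9) and *Bak1* (8). The printed windows therefore do not stand for all windows of this kind. The windows of *Tmem267* (a transmembrane protein gene) and of the 5 germ-cell genes *Ddx4* (an RNA helicase), *Dmrtb1* (a DM-domain transcription factor), *Hormad1* and *Sycp1* (meiotic chromosome axis and synaptonemal complex) and *Mael* (piRNA pathway) were chosen after their values were seen. Each runs from 250 bases before to 50 bases after the gene start, in RefSeq sequence of build GRCm38.p6, 5′ to 3′ on the gene's strand. Capitals mark the CG pairs that are clustered partial CpGs, and lower case CG pairs are at other levels or had too few reads. In that order the windows are chr13:119488223-119488522 (plus strand), chr13:112652261-112652560 (minus), chr4:107683540-107683839 (minus), chr3:95559427-95559726 (plus), chr3:102936051-102936350 (minus) and chr1:166238695-166238994 (minus).
Tmem267: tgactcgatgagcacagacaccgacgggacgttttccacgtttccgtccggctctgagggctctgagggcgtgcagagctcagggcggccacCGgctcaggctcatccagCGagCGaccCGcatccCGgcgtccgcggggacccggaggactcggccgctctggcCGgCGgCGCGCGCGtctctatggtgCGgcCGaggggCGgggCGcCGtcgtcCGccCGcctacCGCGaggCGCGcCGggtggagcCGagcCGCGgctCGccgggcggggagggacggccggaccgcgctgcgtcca
Ddx4: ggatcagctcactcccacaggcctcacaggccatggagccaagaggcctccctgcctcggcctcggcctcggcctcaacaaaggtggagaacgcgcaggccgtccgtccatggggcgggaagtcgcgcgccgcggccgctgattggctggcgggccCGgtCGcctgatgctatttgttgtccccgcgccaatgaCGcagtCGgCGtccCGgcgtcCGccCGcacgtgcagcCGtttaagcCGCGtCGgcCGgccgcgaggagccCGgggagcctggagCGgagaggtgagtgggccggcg
Dmrtb1: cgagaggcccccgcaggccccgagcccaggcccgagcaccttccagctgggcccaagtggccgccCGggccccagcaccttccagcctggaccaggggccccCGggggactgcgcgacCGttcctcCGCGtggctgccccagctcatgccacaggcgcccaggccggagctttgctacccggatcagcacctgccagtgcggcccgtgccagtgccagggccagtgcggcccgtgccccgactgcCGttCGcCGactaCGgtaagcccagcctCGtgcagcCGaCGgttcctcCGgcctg
Hormad1: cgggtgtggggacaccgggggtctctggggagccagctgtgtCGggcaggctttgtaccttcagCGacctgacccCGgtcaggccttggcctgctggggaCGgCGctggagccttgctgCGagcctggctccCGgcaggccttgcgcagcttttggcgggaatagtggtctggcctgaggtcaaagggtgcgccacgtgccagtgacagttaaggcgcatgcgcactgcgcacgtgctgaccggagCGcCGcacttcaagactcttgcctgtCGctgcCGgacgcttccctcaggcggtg
Sycp1: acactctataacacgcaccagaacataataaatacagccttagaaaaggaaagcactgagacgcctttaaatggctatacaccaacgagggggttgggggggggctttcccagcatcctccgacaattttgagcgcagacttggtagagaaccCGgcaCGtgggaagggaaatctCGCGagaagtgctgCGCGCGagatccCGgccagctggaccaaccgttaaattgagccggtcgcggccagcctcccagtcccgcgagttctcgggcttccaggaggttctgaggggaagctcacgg
Mael: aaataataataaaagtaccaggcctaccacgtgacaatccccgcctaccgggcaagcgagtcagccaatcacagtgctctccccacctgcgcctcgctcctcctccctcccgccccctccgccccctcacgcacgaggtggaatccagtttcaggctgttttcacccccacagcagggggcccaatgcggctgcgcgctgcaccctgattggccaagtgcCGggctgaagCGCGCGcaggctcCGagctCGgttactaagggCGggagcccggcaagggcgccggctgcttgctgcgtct

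The *Tmem267* window held 27 clustered partial CpGs among 45 with enough reads, the most of any window. Their mean level was lowest at 61.9%, median 73.9% and highest 86.2% in cadmium sperm, against 57.1%, 70.9% and 79.5% in vehicle sperm. The levels were narrow in both groups, which overlapped. The median read depth in this window was 244.5, against 51 to 102 in the other 5 windows, and its part in the narrow spread was not tested. In *Ddx4* 15 of 19 CpGs with enough reads were clustered partial CpGs, and in *Dmrtb1* all 13 of 13 were. *Ddx4* ran 9.46% (lowest), 32.3% (median) and 47.6% (highest) in cadmium sperm, against 3.77%, 21.7% and 66.2% in vehicle sperm. *Dmrtb1* ran 5%, 34.2% and 74.8% in cadmium sperm, against 5.34%, 24.9% and 93.9% in vehicle sperm. Both windows held mice under 10% and mice over 40% in each group, and the groups overlapped.

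*Hormad1* (11 clustered partial CpGs) ran 14.6%, 30.4% and 71.7% in cadmium sperm, against 0%, 22.4% and 80.7% in vehicle sperm. *Sycp1* (8) ran 0%, 27.8% and 70.4% in cadmium sperm, against 10.5%, 29.3% and 72.3% in vehicle sperm. *Mael* (7) ran 0%, 45.1% and 79.9% in cadmium sperm, against 0.680%, 19.5% and 86.4% in vehicle sperm. In the logistic model described with the cadmium comparison, the smallest Benjamini-Hochberg adjusted p of any CpG in these 6 windows was 0.381 in *Tmem267*. Wide ranges were not limited to the printed germ-cell windows. Among those not printed, *Bak1* ran from 12.2% to 83.3% in cadmium and from 7.66% to 85.6% in vehicle sperm. *Alpk3* ran from 6.23% to 58.9% in cadmium and from 2.30% to 80.1% in vehicle sperm.

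**Figure D1:**
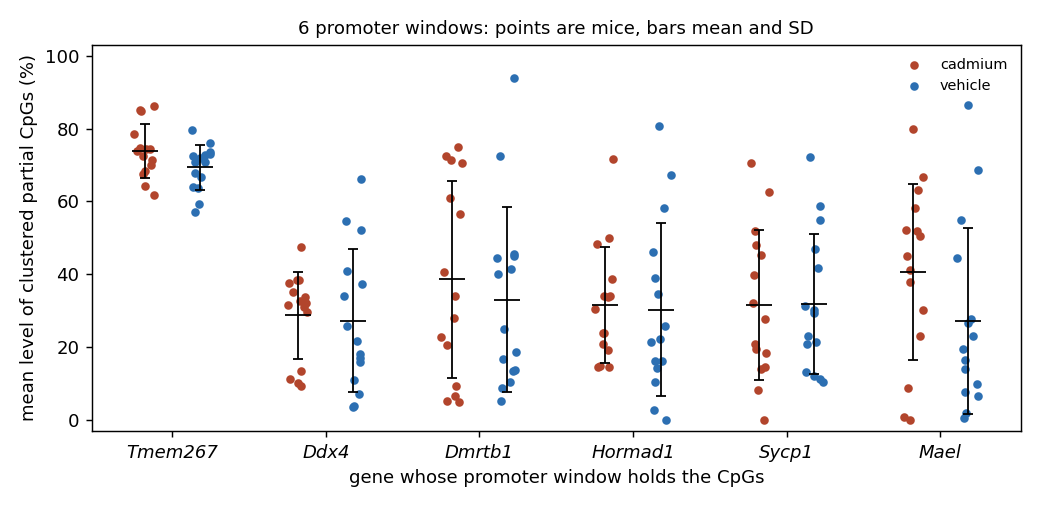
Mean methylation level (percent, vertical axis) of the clustered partial CpGs in each of 6 promoter windows, 1 point per mouse, cadmium left of vehicle, with bars at the group mean and SD (n = 15). The *Tmem267* points lie together between 57.1% and 86.2%, and those of the germ-cell genes spread more widely in both groups. Their narrowest range is that of *Ddx4* in cadmium sperm, 9.46% to 47.6%. The widest is that of *Dmrtb1* in vehicle sperm, 5.34% to 93.9%.

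A total of 207 of 9043 promoter windows with a CpG of enough reads held a clustered partial CpG, and 177 held 2 or more. Those 177 windows had a median of 9 CpGs. Windows whose CpGs were all under 20% had 26, those all over 80% had 7 and all 31396 windows had 7. The median GC content was 54%, against 66%, 52% and 53% in those 3 sets. The motif CACGTG, which is its own reverse complement and the core of an E-box, was in 7.91% of the 177 windows, 10.3% of the windows all under 20%, 10.3% of those all over 80% and 7.14% of all windows. TCCCGCC, a core bound by E2F factors, was sought on both strands and was in 9.04% of the 177 windows, 26.4% of the windows all under 20%, 1.72% of those all over 80% and 11.4% of all windows. The set all under 20% held 7454 windows, but that all over 80% only 58. The shares of the latter rest on 6 windows with CACGTG and 1 with TCCCGCC. Of the printed windows *Ddx4*, *Hormad1* and *Mael* hold both motifs and *Sycp1* holds CACGTG.

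The 34154 CpGs were 64.9% of all 52612 CpGs at 20% to 80% in vehicle sperm; 18458 had no neighbour of that kind within 50 bp. The other CpGs with enough reads were mostly at the ends, 270612 under 20% and 90847 over 80%. The clustered ones formed 12205 clusters, of which 7073 held 2 CpGs, 2856 held 3, 1201 held 4 and 1075 held 5 or more. The largest held 28. A cluster spanned a median of 38 bp and at most 242 bp. The median read depth at a clustered partial CpG was 72 in cadmium and 80 in vehicle libraries, against 70 over all CpGs with enough reads, and the library medians ran from 57 to 106.

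The edges of the choice were not sharp. Just inside the lower edge, 829 CpGs at 20% to 21% in vehicle sperm, with or without a neighbour of that kind, had a median between-mouse SD of 17.7 points in cadmium sperm, and the 818 CpGs just outside, at 19% to 20%, had 17.1. At the upper edge, 1225 CpGs at 79% to 80% had 17.3 points and 1326 at 80% to 81% had 16.7. Cadmium levels took no part in the choice, and 32068 of the 34154 CpGs (93.9%) also had a cadmium mean of 20% to 80%. In cadmium sperm 888 were under 20% and 1198 over 80%, and the cadmium means ran from 4.40% to 94.6%.

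Within a single library most, but not all, of these CpGs were between the extremes. The share at 20% to 80% averaged 66.8% ± 10.4 in cadmium and 62.6% ± 11.6 in vehicle libraries (SD, n = 15 each). It ran from 45.8% (mouse 5) over a median of 69.7% to 80.3% (mouse 11) in cadmium, against 42.5% (mouse 3), 63.5% and 79.5% (mouse 12) in vehicle. A further 16.9% in cadmium and 20.1% in vehicle libraries were under 20%, and 16.3% and 17.3% were over 80%. The share at exactly 0% or 100% averaged 11.5% ± 5.15 in cadmium and 12.9% ± 6.18 in vehicle libraries. CpGs under 20% in vehicle sperm were at 20% to 80% in only 2.21% of cadmium and 1.97% of vehicle values, and CpGs over 80% in 10.9% and 10.3%.

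With the 2 strands summed, levels were graded rather than all-or-none over mice. Scaled so that 1 means every mouse is at 0% or 100% for that mean, the variance over mice had a median of 0.207 in cadmium and 0.254 in vehicle sperm. No CpG had all 15 mice outside 20% to 80% with mice on both sides, in either group. Only 18 CpGs in cadmium and 43 in vehicle sperm came near, with 12 or more mice at the extremes and 3 or more on each side. The opposite, all 15 mice at 20% to 80%, held at 1083 CpGs (3.17%) in cadmium and 810 (2.37%) in vehicle sperm.

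The mice nevertheless differed widely. The SD over mice had a median of 21.1 points in cadmium and 23.4 in vehicle sperm, where counting error at these depths gives 5.96 and 5.67. At 35.9% of the CpGs in cadmium and 46.0% in vehicle sperm, some mouse was under 20% and another over 80%. At 12.1% and 14.7% some mouse was at exactly 0% and another at exactly 100%. The spread was smaller at deeper CpGs: over 4 equal classes from the lowest to the highest mean depth, the median SD was 26.1, 22.4, 19.8 and 17.1 points in cadmium and 27.8, 24.5, 22.0 and 19.7 in vehicle sperm. Reads here have no molecular identifiers, so read depth is not a number of DNA molecules, and the counting SD covers counting error only.

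**Figure D2:**
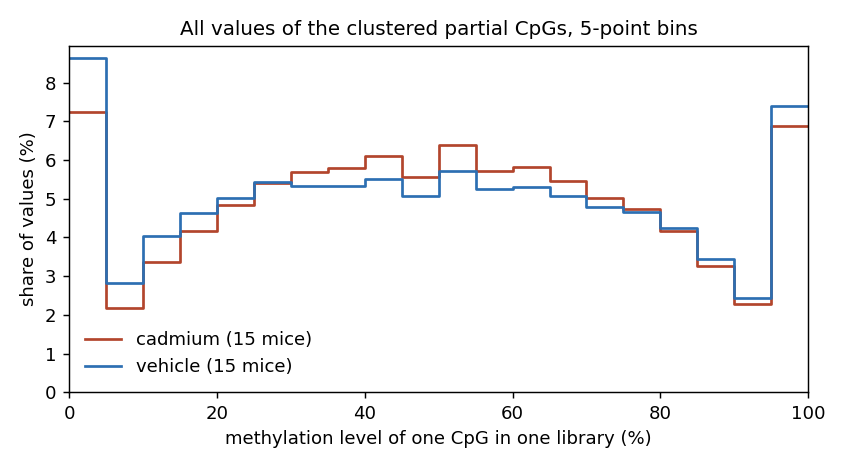
Distribution of all values of the clustered partial CpGs (share of values, percent, by level in bins of 5 points) for cadmium and vehicle libraries. The values fill the whole range with a broad middle and a peak at each end: the bin from 0% to 5% holds 7.23% of cadmium and 8.62% of vehicle values, and that from 95% to 100% holds 6.88% and 7.39%.

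Libraries stood apart in how far these CpGs lay from the extremes, in both groups, and the share of reads on mitochondrial DNA moved with it. That share ran from 0.0127% to 0.0923% in cadmium and from 0.0128% to 0.119% in vehicle libraries. In the 6 libraries with the lowest shares (cadmium mice 2, 3 and 5; vehicle mice 1, 3 and 9), 42.5% to 53.6% of the clustered partial CpGs were at 20% to 80% and 17.8% to 25.2% at exactly 0% or 100%. In the 6 with the highest shares (cadmium mice 11 and 13; vehicle mice 4, 12, 13 and 14), the ranges were 63.2% to 80.3% and 4.39% to 10.4%. Neither pair of ranges overlapped.

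The clustered partial CpGs under 50% in vehicle sperm (18530) and those at 50% or more (15624) lay closer together in the libraries with more mitochondrial reads. The first set averaged 20.4% to 27.1% and the other 73.2% to 74.6% in the 6 libraries with the lowest mitochondrial shares. In the 6 with the highest shares they averaged 43.2% to 58.1% and 51.8% to 62.4%. Vehicle libraries made the split at 50%, so part of their gap comes from the choice. Cadmium libraries took no part in it. In cadmium mice 2, 3 and 5 the sets averaged 23.1% to 27.1% and 73.2% to 74.5%. They averaged 43.2% and 62.4% in cadmium mouse 11, and 55.6% and 57.1% in cadmium mouse 13. In vehicle mouse 13, the library with the highest mitochondrial share, the first set was higher than the other, at 58.1% against 51.8%. Vehicle mouse 15 had the lowest mean over all clustered partial CpGs, 39.4%, at a mitochondrial share of 0.0440%. The part of cells or DNA other than sperm nuclei in this spread was not tested.

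**Figure D3:**
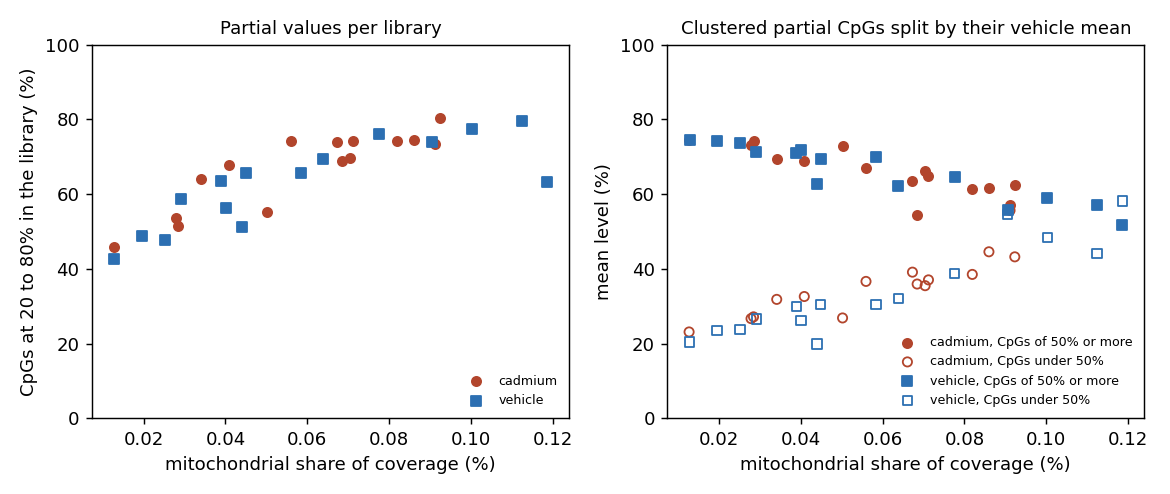
Mitochondrial share of reads (percent, horizontal axis) against the share of clustered partial CpGs at 20% to 80% and against the mean level of those under 50% and of 50% or more in vehicle sperm, 1 point per library (n = 30). Cadmium and vehicle libraries run along the same course, and the 2 sets of CpGs lie 46.6 to 54.1 points apart at the lowest shares. In the cadmium libraries there, which took no part in the split, they lie 46.6 to 51.4 points apart.

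Over libraries, 1 direction held 34.3% of the variance of the clustered partial CpGs in a principal component analysis, and the next 4.64%. Vehicle mouse 13, vehicle mouse 4 and cadmium mouse 13 lay at one end, with scores of 30.8, 24.7 and 24.4. Vehicle mouse 3 and cadmium mouse 5 lay at the other, with −19.0 and −16.7. As a check for a library deposited more than once, over the 435 pairs the mean chi-square per CpG ran from 9.77 (cadmium mice 2 and 3) to 61.1 (vehicle mice 3 and 13), where counting error of reads alone gives about 1. This does not bear on repeat libraries of 1 sample.

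Neighbouring CpGs mostly had like levels in a library. Over the 21949 pairs of adjacent CpGs in a cluster, the median difference averaged 8.23 ± 0.904 points in cadmium and 7.85 ± 1.01 in vehicle libraries (SD, n = 15 each). Both CpGs fell in the same class (under 20%, 20% to 80%, over 80%) in 77.9% of pairs in cadmium and 77.9% in vehicle libraries. They fell in opposite end classes in 0.693% and 0.652%. The pairs were also alike over mice, with a median Pearson r of 0.752 over the 15 cadmium and 0.810 over the 15 vehicle mice. These correlations describe pairs of sites that share libraries, depth and often reads, and carry no p.

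The likeness was lower beyond 50 bp. For CpGs 2 to 10 bp apart the median r was 0.838 in cadmium and 0.877 in vehicle sperm, at 26 to 50 bp 0.646 and 0.730, and at 51 to 100 bp 0.305 and 0.488. From there it stayed level, at 0.283 in cadmium and 0.475 in vehicle sperm between 500 and 1000 bp. Between 1000 and 10000 bp it was 0.121 and 0.199, and between 1000000 and 2000000 bp 0.0274 and 0.0615.

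**Figure D4:**
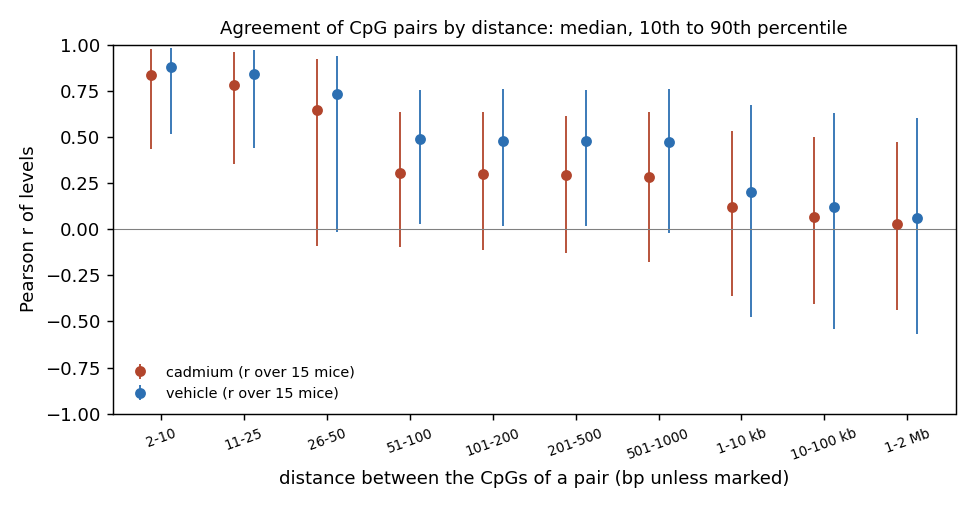
Median correlation over mice (vertical axis) of pairs of clustered partial CpGs by the distance between them (bp, in classes of growing width), with bars from the 10th to the 90th percentile, cadmium and vehicle. The step between 50 and 100 bp shows in both groups: at 26 to 50 bp the cadmium median is 0.646, and at 51 to 100 bp it is 0.305.

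The strands of the same CpG were much less alike than neighbours on 1 strand. At the 2802 clustered partial CpGs with 10 or more reads on each strand in every library, the levels of the 2 strands had a median r over mice of 0.254 in cadmium and 0.386 in vehicle sperm. They differed by a median of 22.8 and 21.2 points. In 9.98% of cadmium and 10.2% of vehicle values, one strand was under 20% and the other over 80%. Values at 20% to 80% with the strands summed were often not so on each strand. Of these, both strands were at 20% to 80% in only 48.5% in cadmium and 47.9% in vehicle sperm. In 12.8% and 13.9% of them, one strand was under 20% and the other over 80%. Neighbours 2 to 10 bp apart on the same strand had a median r of 0.873 in cadmium and 0.898 in vehicle sperm, and a median difference of 1.10 and 1.11 points. On opposite strands at the same distance, r was 0.286 and 0.471, and the difference 18.8 and 17.3 points. At 51 to 200 bp the same-strand r, 0.282 and 0.446, was near the opposite-strand r, 0.269 and 0.439. Same-strand neighbours are often read in the same reads, and the 2 strands come from separate library molecules.

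Cluster means differed more between mice than the CpGs of a cluster differed within a library. Among the 2276 clusters of 4 or more CpGs, the SD among CpGs within a library had a median of 11.9 points in cadmium and 11.2 in vehicle sperm, and the SD of the cluster mean over mice 17.9 and 20.97. In cadmium sperm the SD over mice was the larger in 1774 clusters (77.9%). The cluster mean was at 20% to 80% in all 30 libraries in 92 clusters.

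The largest cluster, of 28 CpGs, lies at chr13:119488315-119488532 in the *Tmem267* and *3110070M22Rik* genes and averaged 73.3% ± 7.13 in cadmium and 69.2% ± 5.85 in vehicle sperm. The next is in *Grb10*, an imprinted adaptor of growth factor receptors, with 25 CpGs at chr11:12026303-12026463. It ran 7.46% (lowest, mouse 3), 24.7% (median) and 50.6% (highest, mouse 13) in cadmium sperm, against 6.65% (mouse 6), 24.1% and 49.2% (mouse 14) in vehicle sperm. *Dusp8*, a phosphatase of MAP kinases, held 20 CpGs at chr7:142082366-142082598 and averaged 34.6% ± 14.6 in cadmium and 28.4% ± 20.9 in vehicle sperm. *Dact1*, a Wnt pathway regulator, held 19 at chr12:71318330-71318487, at 33.0% ± 18.01 and 34.4% ± 25.2. *Stab2*, a scavenger receptor, held 18 at chr10:86908829-86909035, at 30.2% ± 16.3 and 28.7% ± 22.2. In *Grb10*, *Dusp8*, *Dact1* and *Stab2* the highest cadmium library was mouse 13, and the highest vehicle library was mouse 4, 13 or 14. All of these are among the 6 libraries with the highest mitochondrial shares. The largest cluster, in *Tmem267*, did not share this order. Its highest libraries were cadmium mouse 2 and vehicle mouse 2, and its lowest were cadmium mouse 4 and vehicle mouse 13. Cadmium mouse 2 is among the 6 libraries with the lowest shares, and vehicle mouse 13 has the highest share.

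The clusters of 4 or more CpGs with the widest vehicle spread were picked for that spread. Their closeness to all-or-none in vehicle sperm is therefore part of the choice. They lie in *Fam178b*, *Gm6051*, *Cckbr* (a gastrin and cholecystokinin receptor) and *Prdm16* (a regulator of brown fat identity), with a vehicle SD of 42.4, 40.2, 39.0 and 38.0 points. Their cadmium SD, which took no part in the choice, was 26.2, 26.03, 32.7 and 33.5 points. The *Fam178b* cluster (4 CpGs at chr1:36607061-36607108) was under 20% in 1 and over 80% in 5 of 15 cadmium mice, against 3 and 8 of 15 vehicle mice. In the order named, the clusters were at 20% to 80% in 9, 11, 9 and 7 of 15 cadmium mice. In vehicle sperm they were so in 4, 4, 4 and 5 of 15 mice. These 4 clusters had median depths of 34.5 to 49.5 reads.

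The clusters with the narrowest vehicle spread were mostly in repeated or very deep sequence. A pair lie in or beside *Rn18s-rs5*, an 18S ribosomal RNA-related sequence, with median depths of 1960 and 7139 reads, and 1 in *Gm36876* with 9795 reads. Ribosomal RNA genes exist in many near-identical copies, so levels at such depths are uncertain for any single copy. The fourth is in *Setd4*, a SET-domain methyltransferase, at chr16:93592351-93592495 with 133 reads. It ran 49.5%, 54.1% and 65.8% in cadmium sperm, against 49.2%, 58.9% and 64.4% in vehicle sperm, and was at 20% to 80% in all 30 mice.

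By RefSeq annotation of GRCm38.p6, 62.9% of the clustered partial CpGs lay inside a gene, against 76.0% of all CpGs with enough reads. Only 18.8% were within 1000 bp of either end of a gene, against 73.8% of CpGs under 20% and 7.52% of those over 80%. They touched 5401 of the 21853 genes with a CpG of enough reads. Most of these genes (3785) held 1 cluster, the median held 3 CpGs, 412 held 10 or more and 69 held 20 or more. By chromosome, their share of the CpGs with enough reads ran from 7.08% on chr9 to 9.63% on chr10.

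The clustered protocadherin locus on chr18 held most. Protocadherins are cell-surface adhesion proteins whose variable exons are chosen one by one in neurons. The overlapping gene records *Gm37013*, *Gm38666* and *Gm38667* each held the same 91 clustered partial CpGs in 33 clusters, and *Pcdhga1* and *Pcdhga2* held 56 of them each. *Pcdhga3* held 53, *Pcdhgb1* 49, *Pcdhga4* 47 and *Pcdhgb2* 44. These records share CpGs and are 1 locus. The mean over the 91 CpGs ran 14.9%, 33.6% and 60.4% in cadmium sperm, against 13.8%, 29.1% and 68.1% in vehicle sperm.

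*Zfhx3*, a zinc finger homeobox transcription factor gene on chr8, came next with 63 CpGs in 23 clusters. It averaged 56.3% ± 3.05 in cadmium and 54.6% ± 3.39 in vehicle sperm. This mean over 23 clusters varied far less over mice than that of the protocadherin locus. It does not show how much the single CpGs or clusters of *Zfhx3* varied, which is not given here. *Tmem267* held 52 in 6 clusters, at 70.2% ± 5.16 and 66.5% ± 8.15. *Zfp316*, a zinc finger gene on chr5, held 46 of its 84 CpGs with enough reads, at 28.2% ± 12.9 in cadmium and 27.8% ± 18.2 in vehicle sperm. These 12 gene records together held 252 CpGs, 0.738% of all clustered partial CpGs.

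With overlapping records counted once, an order made after the values were seen, the next loci were *Zfpm1* (43 CpGs; a GATA factor partner), *Gse1* (42), *Camta1* (40; a calmodulin-binding transcription activator), *Lmtk3* (39; a kinase), *Wwox* (36), *Ank3* (32; an ankyrin of the axon) and *Dact1* (30). *Gse1* had 16 clusters and averaged 60.9% ± 13.5 in cadmium and 59.0% ± 13.8 in vehicle sperm. *Zfpm1* ran 20.3%, 34.5% and 55.4% in cadmium sperm, against 16.6%, 26.02% and 62.5% in vehicle sperm. *Lmtk3* ran 14.3%, 34.7% and 70.1% in cadmium sperm, against 9.16%, 25.6% and 65.8% in vehicle sperm. *Zfpm1* and *Lmtk3* held theirs in 7 and 6 clusters, and *Camta1*, *Wwox* and *Ank3* in 14, 13 and 9. *Camta1* averaged 50.4% ± 6.55 in cadmium and 49.8% ± 5.48 in vehicle sperm.

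Gene lists gave different shares of clustered partial CpGs, to be read beside 8.25% of all CpGs with enough reads. The lists count only CpGs inside genes, and the 8.25% also counts those outside. Inside genes lay 62.9% of the clustered partial CpGs but 76.0% of all, so the share inside genes is below 8.25%. Of 26 germ-cell genes with a CpG of enough reads, 15 held a clustered partial CpG, in all 94 of 323 CpGs (29.1%). *Tdrd1*, a tudor protein of the piRNA pathway, held 16 and averaged 21.8% ± 11.997 in cadmium and 23.7% ± 18.3 in vehicle sperm; *Ddx4* held 15. Of 27 maternally imprinted genes, 14 held one, in all 17.4% of 593 CpGs. *Grb10* held 27, and *Gnas*, the imprinted gene of the stimulatory G protein alpha subunit, held 19, at 25.8% ± 11.2 and 25.96% ± 22.03. Of 8 paternally imprinted genes only *Rasgrf1* held any, 2 of the list's 140 CpGs (1.43%). All 10 protocadherin gene records of the list with CpGs of enough reads held some, 72 of 199 (36.2%). These records overlap and are not separate results. *Pcdhga1* alone held 56 of the 72 and 154 of the 199, and *Pcdhgb1*, with 49, lies inside it.

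Among the other lists, 52 of 1278 CpGs (4.07%) in Hox and developmental genes were clustered partial CpGs, in 11 of 30 genes, led by *Hoxc4* (11) and *Hoxd3* (10). In cell adhesion and synapse genes they were 188 of 1833 (10.3%), in 20 of 22 genes, led by *Camta1* and by *Rbfox3* (22; a neuronal splicing factor). Markers of cells that could come along with sperm were covered thinly. Of 11 epididymal epithelium genes 4 held one, 14 of 84 CpGs (16.7%), led by the keratin genes *Krt19* and *Krt18* with 5 each. Of 9 leukocyte genes 3 held one, 8 of 53 CpGs (15.1%), led by the integrin gene *Itgb2* (4) and the T cell gene *Cd8a* (2). *Krt18* ran 21.2%, 63.2% and 94.3% in cadmium sperm, against 24.5%, 71.4% and 95.9% in vehicle sperm. *Itgb2* averaged 67.5% ± 6.80 in cadmium and 65.5% ± 11.5 in vehicle sperm. *Cd8a* was lower, at 28.4% ± 24.7 and 23.1% ± 19.7. The part of other cells in these levels was not tested.

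The study set cadmium against vehicle sperm. No clustered partial CpG passed a quasi-binomial logistic model with Benjamini-Hochberg adjustment over all 414071 CpGs, where 7 CpGs in all (0.00169%) had an adjusted p under 0.05, 3 of them higher (0.000725%) and 4 lower (0.000966%) in cadmium sperm. The smallest adjusted p among the 34154 was 0.162. At an unadjusted p under 0.05 there were 851 (2.49%), against 10.3% of all CpGs tested. Of the 12205 clusters 0 passed, with a smallest adjusted p of 0.158, and 0 of all 69525 clusters (0%) did. At an unadjusted p under 0.05 there were 269 clusters (2.20%), against 6.68% of all. limma on the percent values called 0 CpGs and 0 clusters too, with 782 and 266 at an unadjusted p under 0.05. By limma that was 2.29% of the clustered partial CpGs against 1.74% of all CpGs, the other way round from the logistic model, and 2.18% of their clusters against 3.42% of all clusters. A p over the threshold does not show that the groups have the same level.

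The mean over all clustered partial CpGs was 49.6% ± 2.72 in cadmium and 48.5% ± 4.05 in vehicle sperm (SD, n = 15 each), and the groups overlapped. The difference of 1.07 points was smaller than either SD. With the CpGs chosen again, it was 0.442 points without vehicle mouse 15 and 2.24 points without the 6 libraries with the highest mitochondrial shares. Per CpG, the difference had a median of 1.04 points, against 0 over all CpGs tested, and a 5th to 95th percentile range of −10.1 to 12.3 points. It reached 10 points or more in either direction at 4823 CpGs (14.1%). The cadmium mean was the higher at 56.3% of these CpGs and at 42.4% of all. As the median difference over all CpGs was 0, the 42.4% does not mean that most were lower in cadmium sperm. Among clusters the cadmium mean was the higher in 57.4% of those of clustered partial CpGs and in 50.5% of all. The vehicle values chose these CpGs, so these shares are given as a description.

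The clusters nearest to a call were as follows, none with an adjusted p under 0.05. *Jam2*, a junctional adhesion molecule, had 3 CpGs at chr16:84814503-84814548 that ran 61.6%, 79.2% and 90.04% in cadmium sperm, against 49.5%, 63.0% and 75.5% in vehicle sperm. The groups overlapped, and the logistic model gave 13.5 points and an adjusted p of 0.158. *Cradd*, a death-domain adaptor, averaged 67.4% ± 21.8 in cadmium and 39.7% ± 21.6 in vehicle sperm (adjusted p = 0.307, logistic model). A cluster whose nearest gene is *Olfml2b* averaged 89.2% ± 14.1 and 66.3% ± 23.1 (adjusted p = 0.324). On the lower side, *Colq*, the collagen tail of acetylcholinesterase, averaged 45.2% ± 5.29 in cadmium and 49.9% ± 2.85 in vehicle sperm (adjusted p = 0.456). A cluster nearest to *Gm36366* averaged 48.2% ± 6.62 and 52.9% ± 9.09 (adjusted p = 0.475), and one in *Nmnat2*, an NAD-synthesis enzyme, 20.7% ± 11.3 and 30.7% ± 13.3 (adjusted p = 0.512).

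Single CpGs with the smallest p gave a like picture. A CpG in *Jam2* averaged 76.3% ± 12.9 in cadmium and 52.2% ± 15.8 in vehicle sperm (adjusted p = 0.162, logistic model). One in *Hspg2*, the gene of perlecan, averaged 92.5% ± 6.26 and 78.9% ± 11.2 (adjusted p = 0.204), and one in *Fgd3* 47.7% ± 25.6 and 28.02% ± 16.01 (adjusted p = 0.241). Lower in cadmium sperm were a CpG nearest to *Gm53054* with 55.2% ± 11.7 in cadmium and 73.7% ± 11.5 in vehicle sperm (adjusted p = 0.193), one in *Col25a1*, a collagen gene, with 18.1% ± 17.1 and 45.9% ± 23.96 (adjusted p = 0.209), and one nearest to *Npcd* with 20.4% ± 9.96 and 32.6% ± 9.88 (adjusted p = 0.251). In all 6 the groups overlapped.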

How the data were processed

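The authors deposited, per library, the fraction of reads methylated at each cytosine and the read count there. Per the submitters' processing notes the build was mm10 (GRCm38), and Bismark 0.22.3, methylKit 1.12.0, Trim Galore 0.5.0 and bcl2fastq were used; their roles and settings are not given in the sources used here. Deposited fractions times deposited counts gave the methylated counts.

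From these, strands were summed per CpG and CpGs of chr1 to chr19 with 10 or more reads in all 30 libraries were kept (Python 3.11.15, pandas 2.3.3). Total counts per library ran from 53591172 to 94090975. Cadmium and vehicle libraries (n = 15 each) were compared per CpG and per cluster of a level class by a quasi-binomial logistic model with a Pearson dispersion of at least 1 and an F test, Benjamini-Hochberg adjusted over all CpGs or clusters, at 0.05. limma 3.58.1 on percent values was an alternative. Scripts were tested on simulated data. Genes came from RefSeq GRCm38.p6. A methylated control read 97.9% to 98.7% and an unmethylated one 0.074% to 0.666%.

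The CpGs and gene lists were chosen with earlier results of these data known. Named were the 12 genes with most clustered partial CpGs, the 5 largest clusters, the 4 of widest and the 4 of narrowest vehicle spread, the 3 of smallest p in each direction, and the 2 leading genes of each list. Nothing in the labels says that libraries are technical repeats. Mice of the same replicate number were not treated as pairs in the main test. Of 15 same-number pairs, 6 had a correlation of deviations over 0.1. The mean correlation was 0.115 for the same number and −0.00691 for other numbers. Whether a number marks anything shared by its mice was not tested. Chromosomes X and Y were not analysed here in the main test.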

Additional observations from a re-analysis of the deposited data

How the results depend on the processing

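No clustered partial CpG and no cluster of them was called under any of the 15 and 14 alternatives run (0 and 0 in each). The cluster count was not run without the neighbour condition, which leaves no new clusters. The number of clustered partial CpGs was 34154 as reported, 18557 with 20 or more reads, 19237 at 30% to 70% and 52612 with no neighbour required. The cadmium share of values at 20% to 80% per library was 66.8%, and 81.5% were at 10% to 90%. The neighbour difference in cadmium libraries was 8.23 points as reported, 2.57 with strands kept apart, 6.31 with neighbours within 25 bp, 9.26 within 100 bp and 9.16 without the 6 libraries with the highest mitochondrial shares. The cadmium between-mouse SD was 21.1 points as reported, 22.6 with 5 or more reads, 18.99 with 20 or more and 23.1 with strands kept apart. The causes were not tested. The mean difference of cadmium minus vehicle ran from 0.442 to 2.24 points and stayed within the spread between mice. Leaving out those 6 libraries, or vehicle mouse 15, was chosen after seeing the data, and the smallest adjusted p (logistic model) was then 0.0836 and 0.186. With the replicate number as a block, limma called 0 CpGs and 0 clusters, with 1133 (3.32%, against 1.86% of all CpGs) and 414 (3.39%, against 3.53% of all clusters) at an unadjusted p under 0.05, and the paired mean difference was 1.07 points. Same-number mice had correlations of −0.280 to 0.708, and for 2 of the 15 numbers the cadmium mouse was closest to the vehicle mouse of that number. Read depth limits single values: 3.05% of them rest on 10 to 19 reads, and the number of DNA molecules behind the reads is unknown.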
